A study of Mus musculus with 72 samples.

Results

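Cytochrome P450 enzymes of families 1 to 3 oxidise drugs, other foreign compounds, steroids and fatty acids, and the liver makes more of them than most tissues. The genes were taken from the deposited count table as the protein-coding genes of the GENCODE M21 mouse annotation named Cyp1, Cyp2 or Cyp3 with a subfamily letter and a gene number. Of 60 such genes, 41 had a mean level of at least 0.5 CPM (counts scaled to a common library total) over all libraries and are described here, out of 51912 genes in the table. The threshold used the mean over all libraries, without regard to time or paradigm. A gene near the threshold can still pass through the groups where it is high. Cyp3a41a, for example, averaged 0.821 CPM in ad libitum and 0.203 CPM in arrhythmic livers. Just inside the threshold lay Cyp3a41a at 0.524 CPM, Cyp2g1 at 0.531 CPM and Cyp2c39 at 0.642 CPM, and just outside it lay Cyp2b13 at 0.432 CPM. Of the 19 genes below it, 8 had no count in any library, and Cyp1a1, the classical target of the aryl hydrocarbon receptor, averaged 0.0498 CPM.

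The study asked how far a rhythm of feeding, rather than the liver's own clock, drives daily rhythms of liver transcripts. Livers came from male wild-type C57BL/6J mice that were 43 to 49 days old at the start, kept in 12 h of light and 12 h of darkness with free access to water. Each of 4 feeding paradigms was sampled at zeitgeber time (ZT, hours after lights on) 2, 6, 10, 14, 18 and 22 with 3 replicates, giving 18 libraries per paradigm and 72 in all. All groups share the genotype, sex and light cycle. The paradigms are night-restricted, ad libitum and arrhythmic feeding, and the last group, called incompletely adapted here, was on arrhythmic feeding and is labelled as not fully adapted to it. The sources used here do not give meal hours. Whether the 3 replicates of a group are separate animals is not stated in the labels, and p-values then reflect sample-to-sample spread that may be technical.

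Family 1 to 3 enzymes sit in the endoplasmic reticulum, take electrons from NADPH cytochrome P450 oxidoreductase (Por) and carry a heme whose synthesis starts with Alas1. Their transcription is set in part by nuclear receptors that sense foreign and bile compounds (the constitutive androstane receptor CAR, the pregnane X receptor PXR), by the aryl hydrocarbon receptor for Cyp1a genes, and by growth hormone for the genes that differ between the sexes. The PAR bZIP factors Dbp, Tef and Hlf, outputs of the circadian clock, are known to act on several of these genes in mouse liver, Cyp2a5 and Cyp2b10 among them. Because the genes arose by tandem duplication, neighbours are close in sequence.

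The 41 genes lie on 7 chromosomes of GRCm38: 8 Cyp2d genes on chromosome 15, 13 Cyp2c genes on chromosome 19, 10 genes of the Cyp2a, 2b, 2e, 2f, 2g and 2r subfamilies on chromosome 7, 5 Cyp3a genes on chromosome 5, 3 Cyp2j genes on chromosome 4, and 1 gene each on chromosomes 3 (Cyp2u1) and 9 (Cyp1a2). Sequences before the transcription start are shown for 4 genes of chromosome 7, since the comparisons below turn on them: Cyp2a5 and Cyp2b10, called rhythmic in 3 and 2 paradigms, Cyp2a4, the near copy of Cyp2a5, and Cyp2b9, the neighbour of Cyp2b10 whose level differed most between paradigms. They are RefSeq sequences of GRCm38.p6, plus strand, from 250 to 41 bases before the RefSeq start, and span chr7:26835089-26835298 for Cyp2a5, chr7:26306942-26307151 for Cyp2a4, chr7:25897408-25897617 for Cyp2b10 and chr7:26173159-26173368 for Cyp2b9. Capitals mark matches on either strand to 4 motifs: TTATGNAA, which includes one form of the D-box read by PAR bZIP factors; CACGTG, the E-box; GCGTG, the core bound by the aryl hydrocarbon receptor; and AGGTCA, the core element of nuclear receptors.
Cyp2a5: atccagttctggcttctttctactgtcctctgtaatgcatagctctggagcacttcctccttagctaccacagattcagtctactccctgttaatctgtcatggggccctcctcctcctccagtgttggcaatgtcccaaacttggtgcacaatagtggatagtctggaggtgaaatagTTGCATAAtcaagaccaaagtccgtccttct
Cyp2a4: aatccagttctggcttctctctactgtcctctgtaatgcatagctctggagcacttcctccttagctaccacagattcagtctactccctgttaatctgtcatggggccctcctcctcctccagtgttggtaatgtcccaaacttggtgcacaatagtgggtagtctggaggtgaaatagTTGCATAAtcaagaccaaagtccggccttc
Cyp2b10: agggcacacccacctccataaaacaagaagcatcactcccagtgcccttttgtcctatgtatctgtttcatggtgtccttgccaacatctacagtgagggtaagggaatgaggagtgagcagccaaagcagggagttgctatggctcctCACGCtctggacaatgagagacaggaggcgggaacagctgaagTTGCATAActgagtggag
Cyp2b9: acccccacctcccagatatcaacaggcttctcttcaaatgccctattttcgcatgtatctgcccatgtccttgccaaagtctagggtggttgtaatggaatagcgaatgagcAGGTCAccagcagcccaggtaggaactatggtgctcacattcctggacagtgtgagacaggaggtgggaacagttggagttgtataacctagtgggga
In Cyp2a5, Cyp2a4 and Cyp2b10 the capitals TTGCATAA are TTATGNAA read on the minus strand, at -71, -70 and -58 from the start. In Cyp2b10 the capitals CACGC are GCGTG on the minus strand at -101, and in Cyp2b9 the capitals are AGGTCA at -138. Over the whole windows, Cyp2a4 and Cyp2a5 were identical at 97.6% of aligned bases, and Cyp2b9 and Cyp2b10 at 71.0%. A RefSeq window was found for 34 of the 41 genes. TTATGNAA occurred in 3 of the 34 (8.82%) against 3.23% of 27025 promoters of the same length, AGGTCA in 9 (26.5%) against 13.8%, GCGTG in 3 (8.82%) against 28.2%, and CACGTG in 1, Cyp2j6 (2.94%), against 6.05%. The letters of TTATGNAA were chosen after these sequences had been seen, and a match describes the letters only.

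Together the 41 genes took 0.931% of all counts. Their summed level was 9817 ± 1309 CPM (SD, n = 18) in night-restricted, 8994 ± 816 CPM in ad libitum, 9298 ± 948 CPM in arrhythmic and 9143 ± 867 CPM in incompletely adapted livers, and the paradigms' libraries overlapped. In bulk tissue, fewer cells of a type and less RNA per cell cannot be told apart. The libraries count 3′ ends, so CPM is not divided by transcript length, and levels of different genes are compared on that scale.

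The Cyp2d subfamily, relatives of the human drug-metabolising CYP2D6, held the greatest share of the members' counts, 29.9% over 8 genes: Cyp2d9 (964 CPM), Cyp2d10 (903), Cyp2d26 (684), Cyp2d22 (127), Cyp2d40 (93.7), Cyp2d11 (9.16), Cyp2d12 (3.24) and Cyp2d34 (2.81). The 13 Cyp2c genes, among them enzymes acting on arachidonic acid and bile acids, held 16.9%: Cyp2c29 (635 CPM), Cyp2c70 (252), Cyp2c50 (236), Cyp2c23 (121), Cyp2c54 (99.6), Cyp2c68 (88.9), Cyp2c37 (62.5), Cyp2c67 (36.3), Cyp2c38 (24.5), Cyp2c40 (15.4), Cyp2c69 (3.08), Cyp2c55 (2.10) and Cyp2c39. Cyp2e1, the pericentral enzyme that oxidises ethanol, acetone and paracetamol, was the single most abundant gene at 1374 CPM, or 14.8% of the members' counts.

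The 4 Cyp2a genes held 11.1% of the members' counts, with Cyp2a12 (679 CPM) and the coumarin hydroxylase Cyp2a5 (328 CPM) far above the steroid hydroxylase Cyp2a4 (17.0 CPM) and Cyp2a22 (6.73 CPM). The 5 Cyp3a genes, the main drug oxidases under PXR, held 10.2%: Cyp3a11 (585 CPM), Cyp3a13 (187), Cyp3a25 (168), Cyp3a59 (7.86) and Cyp3a41a. The 3 Cyp2j genes, which form epoxides of arachidonic acid, held 6.94%: Cyp2j5 (574 CPM), Cyp2j6 (69.2) and Cyp2j9 (2.86). The remaining members were Cyp2f2 (511 CPM, a naphthalene oxidase that is periportal in liver), Cyp1a2 (281 CPM, the caffeine demethylase), Cyp2u1 (106 CPM), the CAR targets Cyp2b10 (24 CPM) and Cyp2b9 (13.9 CPM), the vitamin D 25-hydroxylase Cyp2r1 (14.2 CPM) and Cyp2g1. Levels thus ran from 0.524 to 1374 CPM within 1 gene family.

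**Figure D1:**
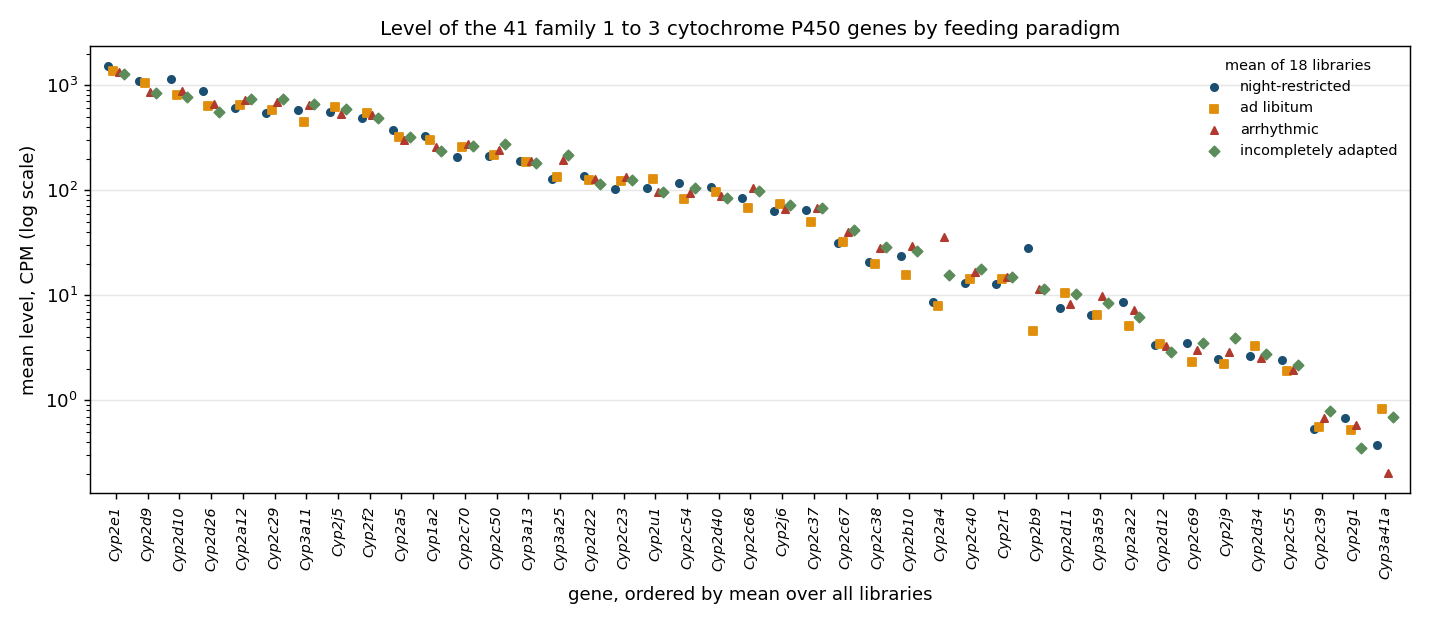
Mean level of each of the 41 genes in CPM (log axis) in the 4 feeding paradigms, each point the mean of 18 libraries, genes ordered by their mean over all libraries. The 4 points of most genes lie close together, while those of Cyp2b9 run from 4.60 CPM in ad libitum to 28.2 CPM in night-restricted livers.

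Reads of paralogs can be shared. Of the last 500 transcript bases of each gene, the stretch a 3′ library reads, 16 members shared no 50-base word with another gene, Cyp2b9, Cyp2u1, Cyp2g1, Cyp1a2 and Cyp2c70 among them. In 4 members over 50% of the words were shared: all of those of Cyp3a41a (100% with Cyp3a41b), 74.3% of those of Cyp2c40, and 51.2% each of those of Cyp2c67 and Cyp2c68. Cyp2a4 shared 44.3%, Cyp2c69 38.4%, Cyp2c37 30.4% (with Cyp2c50 and Cyp2c54), Cyp2c50 27.5%, Cyp2c54 27.1% (with Cyp2c37 and Cyp2c50) and Cyp2a5 12.4%. Of the Cyp2d genes, Cyp2d22 shared no word, and the others shared from 19.5% (Cyp2d12) to 33.5% (Cyp2d40). Among these were Cyp2d26 (25.7%), Cyp2d9 (23.9%), Cyp2d10 (21.7%) and Cyp2d34 (20.4%). Counts of all genes with shared words are uncertain to the extent that the counting split such reads.

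Library depth ran from 4342026 to 12286021 counts (median 6992793), and precision falls with level. The tissue label was met by hepatocyte markers, with Alb at 10493 CPM and Ttr at 11785 CPM, against about 1 CPM for the sum of 4 lymphocyte markers. Libraries also differed in base composition. The GC slope of a library is the change of log2(CPM + 1) against the gene's mean per 10% more GC in the last 500 bases, over genes of at least 1 CPM. The 5 libraries farthest from the median slope of -0.0173 were replicate 1 of night-restricted at ZT2, ZT6, ZT18 and ZT22 (slopes from 0.283 to 0.429) and replicate 1 of incompletely adapted at ZT10 (-0.346). The number 5 is a choice with no gap behind it: the nearest of the 5 lay 0.301 from the median, and the next libraries, incompletely adapted replicate 1 at ZT14 and replicate 2 at ZT22, lay 0.284 and 0.277 from it. Since 4 of the 5 are night-restricted, leaving them out also takes libraries from that group. Results are given with and without these 5 libraries where they rest on them, and with GC slope as a term of the fit where that ends a call.

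A daily rhythm was tested by fitting a 24 h cosine and sine per paradigm in edgeR's quasi-likelihood model of all 12712 genes that passed the filter on low counts, all 41 members among them, with Benjamini-Hochberg adjustment over all genes and a threshold of 0.05. The range is the fitted difference between peak and trough on the log2 scale. Where libraries of 2 times are said below not to overlap, the times were picked from the top and bottom of the course in these same data. Such a gap describes the values and is no test. Cyp3a25 and Cyp2d10, for example, showed such a gap in arrhythmic livers and were not called rhythmic. In night-restricted livers 12 of 41 members (29.3%) passed, against 29.9% of all genes tested. In ad libitum livers 4 (9.76%) passed against 7.48%, in arrhythmic livers 1 (2.44%) against 3.37%, and in incompletely adapted livers 6 (14.6%) against 3.63%. The shares of members in night-restricted, ad libitum and arrhythmic livers lay near those of all genes. In all, 14 members passed in at least 1 paradigm, 8 of them in 1, 3 in 2, and Cyp2a5, Cyp3a13 and Cyp2g1 in 3. No member passed in all 4. In an alternative fit with the replicate number as a block, Cyp2b10 and Cyp3a13 passed in all 4. Without adjustment, a p under 0.05 was reached by 34.1% of members in night-restricted livers, below the 43.2% of all genes, by 24.4% against 22.4% in ad libitum, and by 24.4% against 13.8% in both arrhythmic and incompletely adapted livers.

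The median range of the 41 members was 0.65 in night-restricted, 0.56 in ad libitum, 0.53 in arrhythmic and 0.51 in incompletely adapted livers, beside 0.71, 0.52, 0.43 and 0.42 over all genes. For 19 members the range was largest under night restriction, where the median over all genes was largest too. The fitted peaks of the 12 members called there ran from ZT1.42 (Cyp2c70) to ZT20.9 (Cyp2b10), 9 of the 12 in the dark phase. The shares of all genes with their largest range or a dark-phase peak there were not computed, so neither count is read as a trait of these genes. The number of members called under night restriction was 4 with time as 6 levels in place of a cosine (13.7% of all genes). It was 5 when only that paradigm's libraries were fitted (14.6% of all genes), and 6 without the 5 libraries of extreme GC slope (23.6% of all genes).

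**Figure D2:**
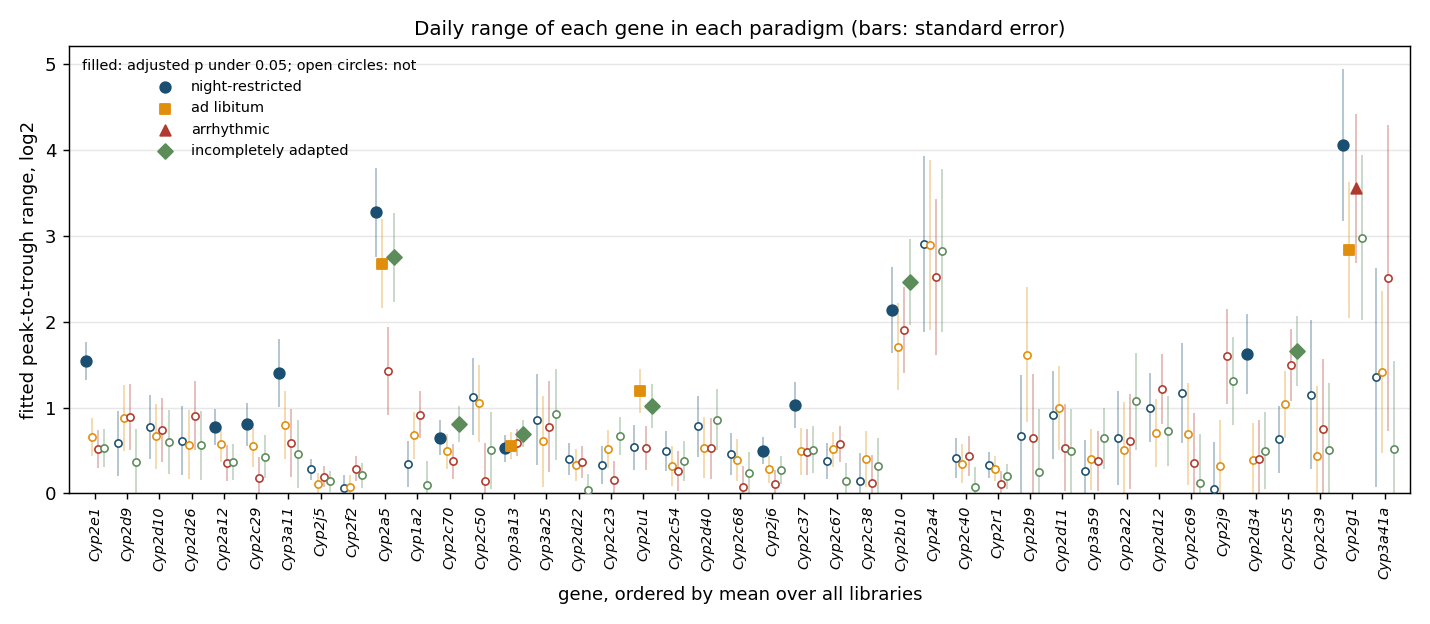
Fitted peak-to-trough range (log2) of each of the 41 genes in the 4 paradigms, with standard errors; filled symbols passed the adjusted threshold and open circles did not. Cyp2a5, Cyp2g1 and Cyp2b10 have the greatest called ranges, and the single filled arrhythmic symbol is that of Cyp2g1 at 3.55.

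Cyp2e1 passed the rhythm test under night restriction and in no other paradigm. Its night-restricted libraries read 2480, 2377 and 2002 CPM at ZT10 and 2216, 2383 and 2296 CPM at ZT14, against 298, 1230 and 1069 CPM at ZT22, and no library at ZT10 or ZT14 overlapped one at ZT22. The range was 1.54 ± 0.22 (SE), or 2.92-fold, with the peak at ZT12.5 (adjusted p = 9.43e-07). The lowest value, 298 CPM, belongs to one of the 5 libraries of extreme GC slope, and without those 5 the range was 1.24 (adjusted p = 5.61e-05). In ad libitum livers means ran from 1078 ± 111 CPM (SD, n = 3) at ZT2 to 1745 ± 369 CPM at ZT14, a range of 0.66 ± 0.22 that did not pass (adjusted p = 0.119). That rhythm passed with the replicate number as a block (range 0.67, adjusted p = 0.0488). In arrhythmic livers means lay between 1146 ± 439 and 1572 ± 258 CPM (range 0.52, adjusted p = 0.409), and in incompletely adapted livers between 1010 ± 216 and 1478 ± 192 CPM (0.53, adjusted p = 0.425).

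Cyp2a5, which hydroxylates coumarin and nicotine, had the steepest course of the abundant members and passed in 3 paradigms. Under night restriction its libraries read 28.3, 82.7 and 94.6 CPM at ZT2 and 788, 593 and 948 CPM at ZT14, with no overlap. The range was 3.28 ± 0.52, or 9.69-fold, with the peak at ZT14.6 (adjusted p = 2.91e-05; 2.86 without the 5 libraries of extreme GC slope, adjusted p = 0.000428). In ad libitum livers it went from 130, 65.5 and 95.3 CPM at ZT2 to 740, 697 and 452 CPM at ZT14, a range of 2.68 ± 0.52 peaking at ZT15.4 (adjusted p = 0.00208). In incompletely adapted livers the high point came at ZT10, with 826, 825 and 362 CPM, and the low point at ZT2, with 181, 71.8 and 101 CPM. The range there was 2.75 ± 0.52 with the peak at ZT11.5 (adjusted p = 0.000828). In arrhythmic livers means moved from 142 ± 41.4 CPM at ZT2 to 472 ± 197 CPM at ZT10, and libraries of 1 time point differed widely, as at ZT6 with 531, 201 and 115 CPM. That range of 1.42 ± 0.52 did not pass (adjusted p = 0.274), and it was 1.83 and passed when the GC slope was a covariate (adjusted p = 0.000563).

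Cyp2a12, a steroid hydroxylase of the same cluster, rose to 808 ± 21.7 CPM at ZT14 from 459 ± 217 CPM at ZT6 under night restriction (range 0.77 ± 0.21, peak ZT14.4, adjusted p = 0.0109; adjusted p = 0.128 without the 5 libraries of extreme GC slope). In the other paradigms its time means lay between 512 ± 176 and 848 ± 138 CPM, and no test passed. Cyp2g1, a steroid-metabolising enzyme best known from olfactory tissue, lies beside Cyp2a5 and was among the lowest members. Its night-restricted libraries read 1.61, 2.27 and 2.10 CPM at ZT10 and 0.377, 0.123 and 0 CPM at ZT22, a range of 4.06 ± 0.88 peaking at ZT10.3 (adjusted p = 0.000227). It passed in ad libitum livers as well (2.84 ± 0.79, ZT10.9, adjusted p = 0.0181; 0.849, 1.71 and 1.37 CPM at ZT10) and in arrhythmic livers, where it was the single member called. The arrhythmic libraries were highest at ZT6 with 1.96, 1.09 and 1.22 CPM, and 2 of 3 were at 0 at both ZT18 and ZT22 (range 3.55 ± 0.87, peak ZT7.77, adjusted p = 0.0139). These are few reads per library, and the fitted range of a gene near 0 depends on the model. In incompletely adapted livers it did not pass (2.98 ± 0.96, adjusted p = 0.129).

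Cyp2b10, the standard reporter of CAR activity, peaked in the dark phase. Under night restriction its libraries read 51.9, 37.9 and 27.5 CPM at ZT18 against 5.99, 12.0 and 4.19 CPM at ZT10, with no overlap (range 2.14 ± 0.51, peak ZT20.9, adjusted p = 0.00433). Without the 5 libraries of extreme GC slope that range was 1.41 and did not pass (adjusted p = 0.150). In incompletely adapted livers it was 42.8, 99.2 and 26 CPM at ZT18 and 13.3, 10.9 and 12.9 CPM at ZT6, a range of 2.46 ± 0.50 peaking at ZT18.1 (adjusted p = 0.00181). Arrhythmic livers were highest at ZT14, with 51.3, 48.6 and 86.7 CPM, and lowest at ZT6, with 5.39, 19.8 and 9.61 CPM. That range, 1.90 ± 0.50, had an adjusted p of 0.0622, and the ad libitum range of 1.71 ± 0.51 one of 0.0665. Both passed with the replicate number as a block (adjusted p = 0.0269 and 0.0342).

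Of the Cyp3a genes, Cyp3a11, the main target of PXR, passed under night restriction alone, with means from 315 ± 117 CPM at ZT6 to 848 ± 460 CPM at ZT14 (range 1.41 ± 0.40, peak ZT17.3, adjusted p = 0.0197). The call was lost when each library's GC slope entered the fit (range 0.75, adjusted p = 0.0592), with no filter on low counts (adjusted p = 0.0508) and with time as 6 levels (adjusted p = 0.171). Libraries of 1 time point were far apart: at ZT22 they read 222, 583 and 1256 CPM. In arrhythmic livers the ZT22 libraries, at 839, 1366 and 1149 CPM, were above all 3 at ZT14 (376, 349 and 692 CPM). Cyp3a13 passed in 3 paradigms with small ranges: 0.52 ± 0.16 at ZT19.5 in night-restricted (adjusted p = 0.0303), 0.55 ± 0.16 at ZT19.5 in ad libitum (adjusted p = 0.0451) and 0.70 ± 0.16 at ZT18.8 in incompletely adapted livers (adjusted p = 0.00879). In arrhythmic livers its range was 0.59 ± 0.16 at ZT16.5, with an adjusted p of 0.0624 (0.0329 when GC slope entered the fit, 0.0451 with the replicate block). In ad libitum livers, for example, it went from 145 ± 18 CPM at ZT6 to 239 ± 12.2 CPM at ZT18. Without the 5 libraries of extreme GC slope the night-restricted call was lost (adjusted p = 0.0797).

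Among the Cyp2c genes, Cyp2c70 forms muricholic acids from bile acids in the mouse. It peaked at ZT1.42 in night-restricted (0.65 ± 0.21, adjusted p = 0.0385) and at ZT21.2 in incompletely adapted livers (0.81 ± 0.21, adjusted p = 0.0390). Its incompletely adapted libraries read 314, 310 and 399 CPM at ZT18 and 183, 238 and 194 CPM at ZT10, with no overlap. The epoxygenases Cyp2c29 (411 ± 255 CPM at ZT6, 687 ± 326 CPM at ZT18; range 0.80 ± 0.25, adjusted p = 0.0328) and Cyp2c37 (44.6 ± 24.2 CPM at ZT2, 92.2 ± 12.8 CPM at ZT14; 1.03 ± 0.27, adjusted p = 0.00837) passed under night restriction. Cyp2c55, at 3.4 ± 0.74 CPM at ZT10 and 0.896 ± 0.425 CPM at ZT18, passed in incompletely adapted livers (1.66 ± 0.41, peak ZT5.95, adjusted p = 0.0284). Without the 5 libraries of extreme GC slope, Cyp2c37 (adjusted p = 0.0764) and Cyp2c70 in incompletely adapted livers (adjusted p = 0.117) no longer passed. When GC slope entered the fit, Cyp2c70 passed in neither paradigm (adjusted p = 0.0787 in night-restricted and 0.0535 in incompletely adapted livers).

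Cyp2u1, a fatty acid hydroxylase also expressed outside the liver, peaked in the light phase. In ad libitum livers its libraries read 193, 200 and 193 CPM at ZT6 and 87.9, 64.3 and 99.5 CPM at ZT18, with no overlap (range 1.19 ± 0.26, peak ZT6.42, adjusted p = 0.00318). In incompletely adapted livers it was 149, 142 and 151 CPM at ZT2 and 29.8, 49.0 and 87.4 CPM at ZT14 (1.02 ± 0.26, peak ZT2.39, adjusted p = 0.0317). Its range was 0.53 in both night-restricted (adjusted p = 0.216) and arrhythmic livers (adjusted p = 0.541). The courses there were not flat. Time means ran from 80.5 ± 25.2 CPM at ZT14 to 146 ± 22.7 CPM at ZT6 under night restriction. In arrhythmic livers they ran from 54.3 ± 10.4 to 128 ± 35.6 CPM at the same times. The last members called under night restriction were Cyp2j6 (48.7 ± 15.6 CPM at ZT22, 75.1 ± 14.5 CPM at ZT10; 0.50 ± 0.16, adjusted p = 0.0470) and Cyp2d34 (1.11 ± 1.41 CPM at ZT22, 4.11 ± 2.27 CPM at ZT10; 1.63 ± 0.46, adjusted p = 0.0169). Both calls were lost without the 5 libraries of extreme GC slope (adjusted p = 0.172 and 0.107), and that of Cyp2j6 also when GC slope entered the fit (adjusted p = 0.0743).

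**Figure D3:**
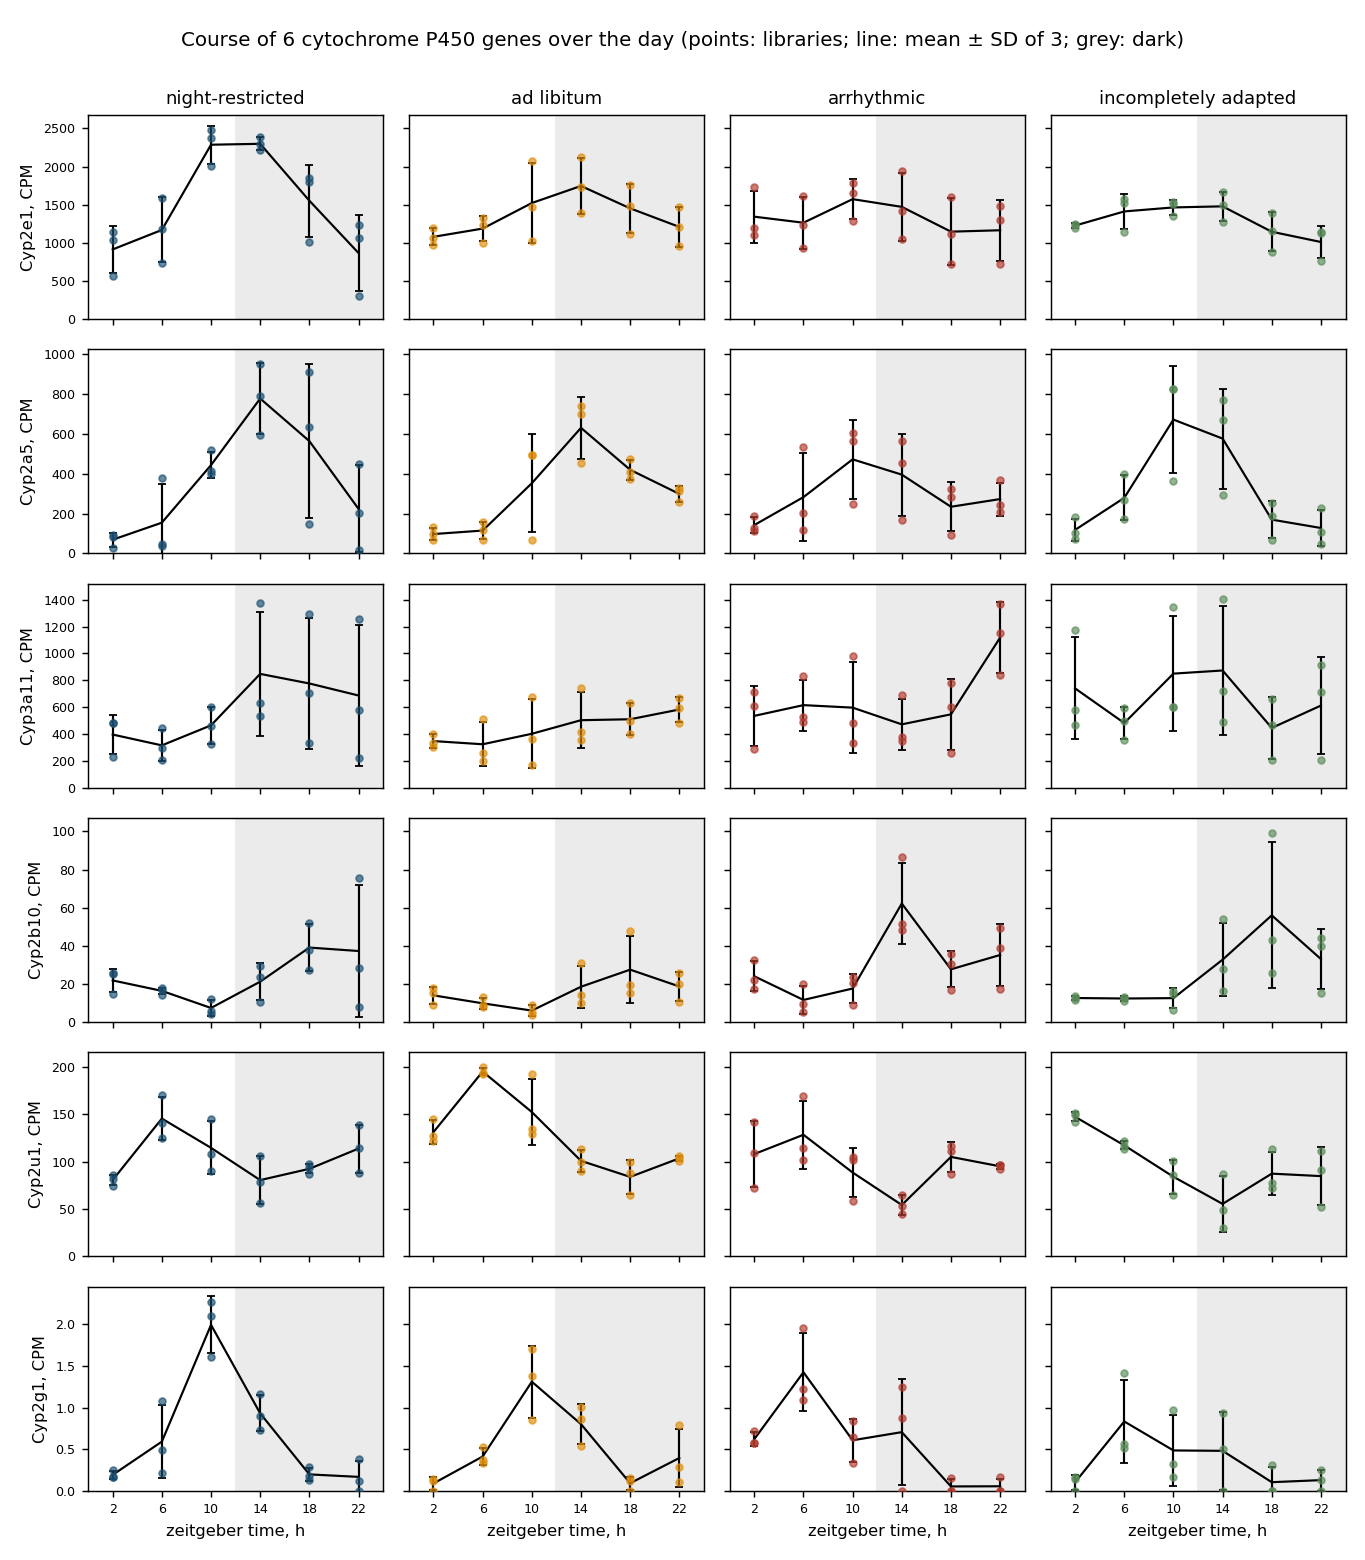
Level in CPM (linear axes from 0) of 6 genes against zeitgeber time in the 4 paradigms; points are libraries, the line joins means of 3 with SD, and grey marks the dark phase. Cyp2e1 reads 2002 to 2480 CPM in the night-restricted libraries of ZT10 and ZT14, and Cyp2a5 has its lowest time mean at ZT2 in every paradigm.

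Of the 10 most abundant members, 5 passed no rhythm test in any paradigm. Cyp2f2 and Cyp2j5 passed no rhythm test in any of the 4 paradigms. Time means of Cyp2f2 lay between 436 ± 45.8 and 565 ± 24.7 CPM over all 4 paradigms, with ranges from 0.06 ± 0.15 in night-restricted to 0.29 ± 0.15 in arrhythmic livers. Those of Cyp2j5 lay between 516 ± 72.6 and 661 ± 73.7 CPM, with ranges from 0.11 ± 0.12 in ad libitum to 0.28 ± 0.12 in night-restricted livers. Cyp2d9 (542 ± 342 to 1398 ± 354 CPM), Cyp2d10 (526 ± 149 to 1346 ± 627 CPM) and Cyp2d26 (395 ± 111 to 994 ± 546 CPM) moved more between time means, with wide spreads at single times. Cyp1a2 also passed in no paradigm. Its arrhythmic libraries were 363, 299 and 308 CPM at ZT14 and 194, 191 and 173 CPM at ZT22, without overlap, and its range there of 0.92 ± 0.27 (peak ZT12.7) had an adjusted p of 0.109, or 0.0136 with the GC slope as a covariate.

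Whether rhythms differed between paradigms was tested in the same edgeR model, as an interaction of paradigm and time of day. Of the 41 members, 0 passed between arrhythmic and night-restricted livers, where 3.89% of all genes did. An unadjusted edgeR p under 0.05 was reached by 12 members (29.3%, beside 25.9% of all genes). DESeq2 called 1 member, beside 6.93% of all genes. The pairs arrhythmic and ad libitum (0.0236% of all genes), night-restricted and ad libitum (0%), and incompletely adapted and arrhythmic (0%) also gave 0 members by edgeR. In these 3, an unadjusted p under 0.05 was reached by 2, 2 and 5 members (4.88%, 4.88% and 12.2%, beside 9.05%, 8.72% and 2.44% of all genes). DESeq2 called 0 members in each. The member called by DESeq2 was Cyp2e1. In edgeR its range in arrhythmic livers was smaller than under night restriction by a log2 difference of -1.03 ± 0.31, with an adjusted p of 0.0671, above the threshold. For Cyp2a5 the difference was -1.85 ± 0.73 (adjusted p = 0.135). With the replicate number as a block, 5 members passed between arrhythmic and night-restricted livers, beside 17.9% of all genes. Cyp2e1 and Cyp2a5 were among them (edgeR, adjusted p = 0.0162 and 0.0339).

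Mean levels over the day were compared with 18 libraries a side. Every comparison shares a group of libraries with another, so they are not independent. The fit also took the 18 libraries of a paradigm as independent, while same-numbered libraries of a paradigm deviated together across times. Their median correlation was 0.242, against -0.116 for libraries of other numbers, so these p-values may be too small. Between arrhythmic and night-restricted livers 5 of 41 members (12.2%) passed, against 6.92% of all genes. Of these, 2 were higher in arrhythmic livers (4.88%, against 1.76% of all genes) and 3 were lower (7.32%, against 5.16%). Between arrhythmic and ad libitum livers 6 (14.6%) passed against 2.1% of all genes, 4 higher (9.76%, against 0.661%) and 2 lower (4.88%, against 1.44%). Cyp2a4 is among the higher members of both comparisons, and its calls rested on 2 arrhythmic libraries. Cyp3a41a, among the 2 lower than in ad libitum livers, passed the level threshold through the groups where it was high. Both genes are counted in these shares. Between night-restricted and ad libitum livers 2 (4.88%) passed against 1.62%, both higher (against 0.724% of all genes), and 0 were lower (against 0.897%). Lower with an unadjusted edgeR p under 0.05 were 3 members (7.32%, beside 7.4% of all genes). Incompletely adapted and arrhythmic livers differed in 0 members and in 0% of all genes by edgeR, and in 0 members by DESeq2. The unadjusted edgeR p was under 0.05 in 3 members (7.32%, beside 5.03% of all genes). The members' median difference was 0.005 log2 for arrhythmic minus night-restricted, 0.11 for arrhythmic minus ad libitum, 0.09 for night-restricted minus ad libitum and -0.03 for incompletely adapted minus arrhythmic, beside 0.001, -0.01, -0.01 and 0.01 over all genes.

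Cyp2b9, a testosterone hydroxylase that is higher in female than in male mouse liver, differed most. Its lowest, median and highest libraries were 2.51, 27.9 and 69.0 CPM under night restriction, 0.978, 3.49 and 17.8 CPM in ad libitum, 1.09, 11.3 and 34.2 CPM in arrhythmic and 2.46, 8.06 and 34.3 CPM in incompletely adapted livers. The groups overlapped at their ends, with night-restricted livers highest, ad libitum livers lowest, and arrhythmic and incompletely adapted livers between them. Night-restricted livers were higher than ad libitum livers by 2.81 ± 0.37 log2, or 7.0-fold (adjusted p = 2.5e-06). Arrhythmic livers were lower than night-restricted by a log2 difference of -1.43 ± 0.36 (adjusted p = 0.0126) and higher than ad libitum by 1.38 ± 0.38 (adjusted p = 0.0404). It shared no 50-base word at its 3′ end with another gene. Cyp2b10 was higher in arrhythmic than in ad libitum livers (medians 22.8 and 13.7 CPM; 0.93 ± 0.25, adjusted p = 0.0341), and its night-restricted median of 20.8 CPM gave no call against either.

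Cyp2a4, another gene of female predominance in liver, was higher in arrhythmic than in night-restricted (2.00 ± 0.48 log2, adjusted p = 0.00944) and than in ad libitum livers (2.12 ± 0.47, adjusted p = 0.00784), but both calls rested on 2 libraries. Arrhythmic replicate 3 at ZT18 read 193 CPM and replicate 1 at ZT22 read 231 CPM, against an arrhythmic median of 10.8 CPM, and medians of 4.79 CPM in night-restricted, 5.61 CPM in ad libitum and 9.14 CPM in incompletely adapted livers. Without these 2 libraries, a choice made after seeing the data, the differences were 0.88 (adjusted p = 0.228) and 1.0 (adjusted p = 0.307). In the same refit Cyp2b9 passed in all 3 comparisons (adjusted p = 0.0375, 0.0282 and 9.04e-07), Cyp2g1 no longer passed the arrhythmic rhythm test (adjusted p = 0.0731), and Cyp2b10 did (2.33, adjusted p = 0.0208). The rhythm difference of Cyp2e1 between arrhythmic and night-restricted livers then passed too (-1.14, adjusted p = 0.0331).

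Of the Cyp2c genes, Cyp2c54 was higher under night restriction than in ad libitum livers (medians 108 and 79.6 CPM; 0.56 ± 0.12, adjusted p = 0.00346) and lower in arrhythmic than in night-restricted livers (median 96.7 CPM; -0.36 ± 0.12, adjusted p = 0.0459). Cyp2c68 was higher in arrhythmic than in ad libitum livers (medians 108 and 68.5 CPM; 0.62 ± 0.12, adjusted p = 0.00201), with the limit that 51.2% of its 3′ words are shared. Cyp2c70 was higher in arrhythmic than in night-restricted livers (medians 274 and 196 CPM; 0.37 ± 0.10, adjusted p = 0.0210). Cyp1a2 was lower there (medians 239 and 315 CPM; -0.46 ± 0.14, adjusted p = 0.0317). In each of these comparisons the 2 groups of libraries overlapped. For Cyp2c54 the limit is that 27.1% of its 3′ words are shared with Cyp2c37 and Cyp2c50.

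Called lower in arrhythmic than in ad libitum livers were Cyp2j5 (medians 514 and 609 CPM; -0.23 ± 0.06, adjusted p = 0.0321) and Cyp3a41a (-2.28 ± 0.73, adjusted p = 0.0437). Cyp3a41a was at 0 in 8 of 18 arrhythmic and 3 of 18 ad libitum libraries, with medians of 0.145 and 0.510 CPM, and its reads cannot be told from those of Cyp3a41b. It passed the level threshold through the groups where it was high, ad libitum among them, so its place among the members is not independent of this difference. None of the 5 differences between arrhythmic and night-restricted livers passed without the 5 libraries of extreme GC slope (edgeR, adjusted p from 0.0832 for Cyp2a4 to 0.505 for Cyp1a2), while both between night-restricted and ad libitum livers did (adjusted p = 0.000169 for Cyp2b9 and 0.00953 for Cyp2c54).

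**Figure D4:**
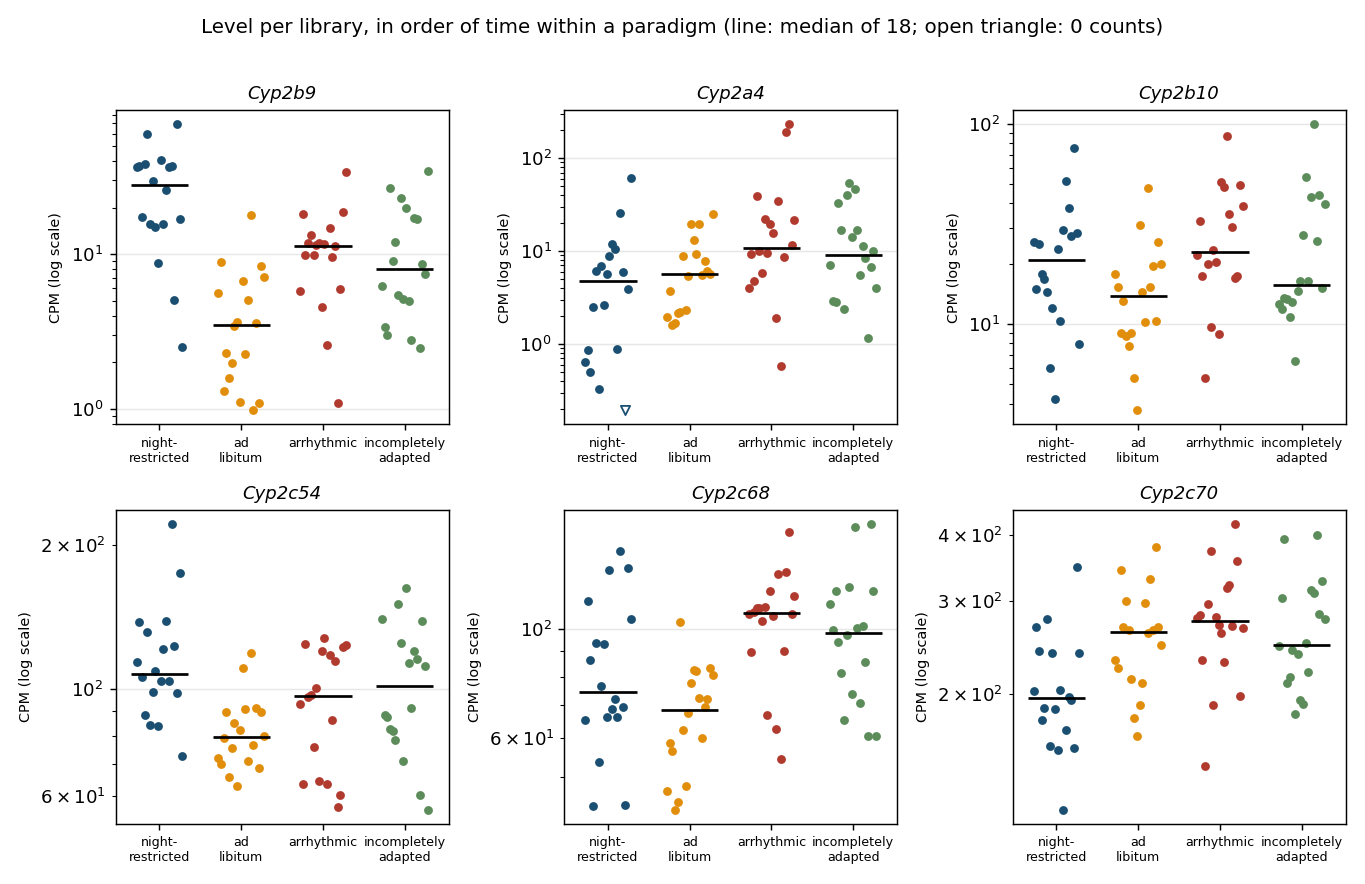
Level in CPM (log axes) of 6 genes in every library, in order of time within each paradigm; the line is the median of 18 and an open triangle marks a library with no count. Cyp2b9 medians run from 3.49 CPM in ad libitum to 27.9 CPM in night-restricted livers, and 2 arrhythmic libraries of Cyp2a4 stand near 200 CPM or above.

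The genes that supply the enzymes were counted as a list of 17 electron donors and heme enzymes, of which 6 passed the rhythm test in night-restricted, 3 in ad libitum, 1 in arrhythmic and 3 in incompletely adapted livers (35.3%, 17.6%, 5.88% and 17.6%, beside 29.9%, 7.48%, 3.37% and 3.63% of all genes). Por passed in every paradigm, with ranges of 2.51 ± 0.21 (peak ZT12.6, adjusted p = 2.4e-13), 2.47 ± 0.21 (ZT13.7), 2.01 ± 0.21 (ZT13.0) and 1.99 ± 0.21 (ZT12.8) in the same order. Its arrhythmic means went from 119 ± 10.8 CPM at ZT2 to 389 ± 87.0 CPM at ZT14, and its night-restricted means from 75.9 ± 23.7 to 383 ± 27.9 CPM at the same times. Alas1, which makes the first heme precursor, passed in night-restricted (range 4.68 ± 0.58, peak ZT13.6), ad libitum (3.0 ± 0.56) and incompletely adapted livers (2.36 ± 0.56, ZT10.7).
In arrhythmic livers its time means ran from 26.4 ± 9.96 CPM (ZT14) to 66.2 ± 43.8 CPM (ZT6), and it did not pass (adjusted p = 0.653). Under night restriction they went from 6.06 ± 2.45 CPM at ZT2 to 173 ± 102 CPM at ZT14. Its rhythm differed between those paradigms, with a range lower in arrhythmic livers (difference -3.72 ± 0.80, adjusted p = 0.000688). In the same fit no P450 member passed that test, while 5 did with the replicate number as a block, beside 17.9% of all genes. Mean levels of Por were higher in arrhythmic than in ad libitum livers (0.38 ± 0.10, adjusted p = 0.0379). Against night-restricted livers, arrhythmic livers had more of the cytochrome b5 reductase Cyb5r3 (0.37 ± 0.10, adjusted p = 0.0158) and less of the heme oxygenase Hmox1 (-0.54 ± 0.15, adjusted p = 0.0248).

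The PAR bZIP factors Dbp, Tef and Hlf and their repressor Nfil3 passed the rhythm test in all 4 paradigms. Dbp ranged over 5.45 ± 0.49 log2 in night-restricted (peak ZT9.42), 6.56 ± 0.50 in ad libitum, 4.79 ± 0.47 in arrhythmic and 5.08 ± 0.47 in incompletely adapted livers (peak ZT8.86). Hlf had the smaller range in arrhythmic livers, 0.59 ± 0.14 against 1.35 ± 0.14 under night restriction, and the difference passed (-0.75 ± 0.20, adjusted p = 0.0147). Of 16 xenobiotic receptors and liver transcription factors tested, 6 passed the rhythm test in night-restricted livers (37.5%, beside 29.9% of all genes), with Rxra, Hnf4a, Nr1h4 and Cebpa of smallest p. In ad libitum livers 1 passed (Hnf4a), beside 7.48% of all genes. The PXR gene Nr1i2 was the 1 that passed in arrhythmic livers (1.22 ± 0.30, peak ZT13.8, adjusted p = 0.0221), beside 3.37% of all genes. For incompletely adapted livers edgeR called 0 (unadjusted p under 0.05 in 3), beside 3.63%. For mean levels edgeR called 0 of the 16 in each of the 4 comparisons, with an unadjusted p under 0.05 in 3 for arrhythmic against night-restricted, 2 for night-restricted against ad libitum and 0 in the other two.

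Of 14 other CAR and PXR targets, 3 passed the rhythm test under night restriction (Ugt2b34, Slco1a4 and Abcb1a; 21.4%, beside 29.9% of all genes) and 1 in ad libitum livers (Abcc2; 7.14%, beside 7.48%). For mean levels the unadjusted edgeR p was under 0.05 in 3 of the 14 for arrhythmic against night-restricted and in 5 in each of the other 3 comparisons. After adjustment 1 gene was called for each of night-restricted and arrhythmic against ad libitum livers, beside 1.62% and 2.1% of all genes. The gene was the uptake transporter Slco1a4, higher in night-restricted than in ad libitum livers (medians 58.8 and 34 CPM; 0.87 ± 0.14, adjusted p = 5.44e-05) and in arrhythmic than in ad libitum livers (median 56.6 CPM; 0.74 ± 0.14, adjusted p = 0.00142). Of 8 growth hormone signalling and sex-pattern genes, Igf1 and Socs2 passed the rhythm test under night restriction and Igf1 in arrhythmic livers, beside 29.9% and 3.37% of all genes. Among these 8 genes edgeR called 0 mean level differences (unadjusted p under 0.05 in 1 gene, incompletely adapted against arrhythmic). Of 9 pericentral genes, the zone where most of these P450 enzymes are made, edgeR called 0 in mean level (unadjusted p under 0.05 in 1 in each comparison but incompletely adapted against arrhythmic, which had 0), and the sum of the 9 averaged from 2018 ± 344 CPM in night-restricted to 2178 ± 317 CPM in arrhythmic livers. Of 7 periportal genes, Sds and Asl were higher in arrhythmic and Hal in night-restricted than in ad libitum livers, beside 0.661% and 0.724% of all genes called higher there. The unadjusted edgeR p of these 7 was under 0.05 in 5 for arrhythmic against each of night-restricted and ad libitum livers. It was under 0.05 in 1 for night-restricted against ad libitum and in 3 for incompletely adapted against arrhythmic. The sum of 5 general hepatocyte markers was 30232 ± 3673 CPM in night-restricted, 24196 ± 2326 in ad libitum, 27265 ± 2717 in arrhythmic and 24872 ± 2084 in incompletely adapted livers. For these 5 edgeR called 0 mean level differences, with an unadjusted p under 0.05 in 2 for arrhythmic against night-restricted, 1 for arrhythmic against ad libitum and 3 for night-restricted against ad libitum (Ttr, 0.49 ± 0.14, adjusted p = 0.0572, Serpina1a and Alb). Of the markers of Kupffer, endothelial, stellate, bile duct and erythroid cells, edgeR called 0 in mean level, with an unadjusted p under 0.05 in at most 3 per list and comparison (Kupffer cells, arrhythmic against ad libitum). Of 2 other aryl hydrocarbon receptor targets tested, 0 passed a rhythm or mean level test by edgeR, with an unadjusted p under 0.05 in at most 1. DESeq2 was not tabulated for these lists. The part of hepatocyte content, zonation or other cell types in the P450 differences was not tested.

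Levels of several members moved with the GC slope of the library. Over the 72 libraries, which share paradigms and times, Pearson's r with the slope was above 0.5 for 6 members, among them Cyp2d10 (0.92), Cyp2d26 (0.912), Cyp2d40 (0.858), Cyp1a2 (0.700) and Cyp2d9 (0.654). It was below -0.5 for 16, among them Cyp3a25 (-0.937), Cyp2c50 (-0.911), Cyp2c29 (-0.869), Cyp3a11 (-0.820), Cyp2a12 (-0.732) and Cyp2a5 (-0.702). For Cyp2b9 (0.214), Cyp2b10 (0.192), Cyp2u1 (0.181) and Cyp2g1 (-0.03) it was small. The mean slope was 0.0699 in night-restricted and -0.0645 in incompletely adapted livers. Its part in the rhythms and differences above was not tested beyond the refits without the 5 libraries and with the slope as a covariate.

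**Figure D5:**
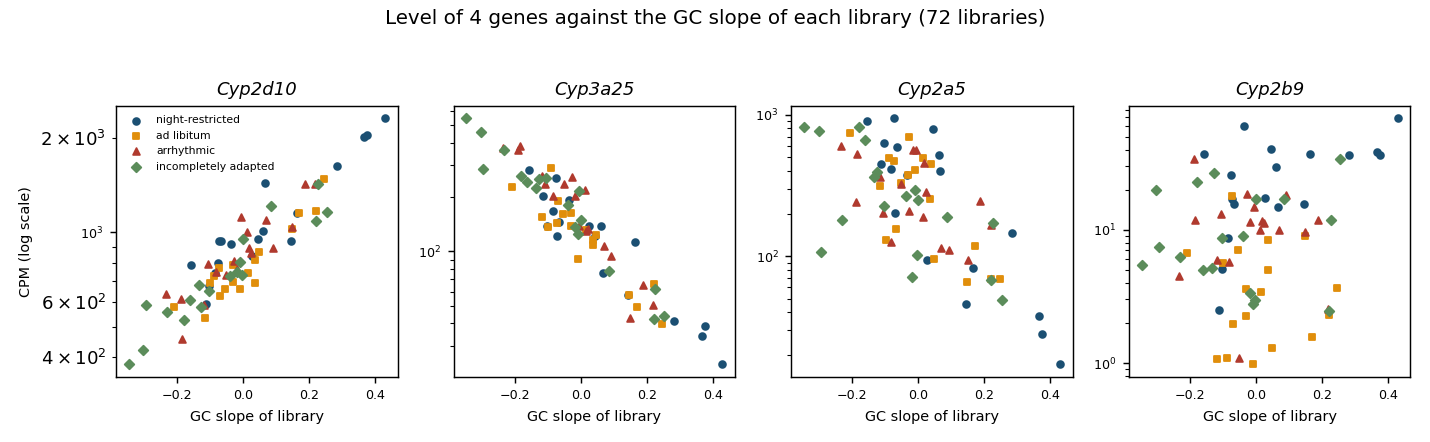
Level in CPM (log axes) of 4 genes against the GC slope of each of the 72 libraries, coloured by paradigm. Cyp2d10 rises and Cyp3a25 falls along the slope (r of 0.92 and -0.937), and Cyp2b9 spreads over the whole axis (0.214).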

How the data were processed

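Livers were profiled with a 3′ mRNA library kit on polyA RNA, per the labels' protocols. The authors deposited whole-number counts per gene; reads were aligned with STAR 2.4.2a to mm10 (GRCm38.p5), per the submitters' processing notes. For the counting tool, its strand setting and annotation, the sources used here give nothing, so reads of overlapping genes could not be separated. A second deposited table, labelled TPM, equals CPM of these counts and was not used. CPM, gene symbols (GENCODE M21) and GC slopes were computed here.

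Genes passing filterByExpr over 24 groups (12712) were fitted in edgeR 4.0.16 (R 4.3.3, limma 3.58.1) with TMM scaling, trended dispersion and robust quasi-likelihood, on all 72 libraries. The design held a mean, a 24 h cosine and a sine per paradigm. Benjamini-Hochberg adjustment ran over all genes at 0.05. DESeq2 1.42.0 served as an alternative. The code was tested on simulated data. All members are named; values by time are given for the 10 most abundant, 5 classical genes and the 6 of smallest p per passed test, and up to 4 genes per other list. The members and lists were chosen with earlier results of these data known.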

Additional observations from a re-analysis of the deposited data

How the results depend on the processing

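Of 36 calls on members, 10 held under all 9 alternatives and when each library was left out in turn. Among them were the rhythms of Cyp2e1 and Cyp2g1 in night-restricted, of Cyp2u1 in ad libitum, of Cyp2b10 in incompletely adapted and of Cyp2a5 in all 3 of these paradigms. The rest were the mean levels of Cyp2c68 in arrhythmic against ad libitum, and of Cyp2c54 and Cyp2b9 in night-restricted against ad libitum livers. Of all calls 0 reversed direction, which only mean level calls could do, since a fitted range is never below 0. The counts that moved over 1.5 times follow, each with the percentage of all genes called in the same fit. Night-restricted rhythms (12): 7 with no filter on low counts (11.8%), 4 with time as 6 levels (13.7%), 6 without the 5 libraries of extreme GC slope (23.6%) and 5 with that paradigm alone (14.6%). Arrhythmic rhythms (1): 5 with the GC slope as covariate (6.41%), 3 without the 5 libraries (4.51%) and 3 by DESeq2 (4.24%). Arrhythmic against night-restricted rhythm differences (0): 1 by DESeq2 (6.93%) and 1 without the 2 libraries high in Cyp2a4 (3.32%), an alternative added after seeing the data. Mean levels of arrhythmic against night-restricted (5): 3 with no filter (1.53%), 0 without the 5 libraries (0.747%) and 1 without the 2 (3.49%). Arrhythmic against ad libitum (6): 2 with no filter (0.563%), 3 with time as 6 levels (1.42%), 11 with the GC covariate (6.18%) and 3 without the 2 (0.96%). Night-restricted against ad libitum (2): 7 with the GC covariate (3.45%) and 4 without the 5 libraries (0.944%). The cause was not tested.

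Leaving out 1 library gave 8 to 14 night-restricted, 2 to 4 ad libitum, 0 to 3 arrhythmic and 3 to 6 incompletely adapted rhythms. It gave 0 to 2 rhythm differences of arrhythmic against night-restricted livers and 0 to 0 in the other 3 pairs. Mean level differences ran over 3 to 9, 2 to 7, 2 to 4 and 0 to 0, in the order of the report. Ad libitum replicate 2 at ZT10 gave the 2 rhythms and the 4 differences from night-restricted livers, and incompletely adapted replicate 2 at ZT18 the 3 rhythms. Arrhythmic rhythms were 0 without replicate 1 at ZT6, 3 without replicate 2 at ZT18, and 2 without replicates 1 or 2 at ZT2, 3 at ZT10 or 3 at ZT18. The rhythm differences were 2 without night-restricted replicate 1 at ZT18 and 1 without night-restricted replicate 2 at ZT2, ZT6 or ZT22 or arrhythmic replicate 3 at ZT6 or ZT14 or 1 at ZT22. Mean differences of arrhythmic from night-restricted livers were 9 without night-restricted replicate 3 at ZT22, and 3 without night-restricted replicate 1 at ZT2, ZT6, ZT18 or ZT22, arrhythmic replicate 1 at ZT6 or 3 at ZT10. Those from ad libitum livers were 2 without arrhythmic replicate 2 at ZT6 or ZT22, and 3 without arrhythmic replicate 1 at ZT10 or 3 at ZT14 or ad libitum replicate 2 at ZT6 or ZT18.

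The labels number replicates 1 to 3 in every group, but the numbers did not pair samples across paradigms: deviations of same-numbered libraries had a median correlation of 0.242 across times within a paradigm and -0.0165 across paradigms, and 53 of 72 libraries were closest to their own number within a paradigm but 21 of 72 across. With the replicate number as a block, rhythms were called in 14, 6, 5 and 6 members, beside 41.9%, 14.1%, 6.0% and 5.7% of all genes. The arrhythmic against night-restricted rhythm difference was called in 5, beside 17.9% of all genes, where the fit without the block called 0. These 5 were Cyp2e1 (adjusted p = 0.0162 in the block fit), Cyp2a5, Cyp1a2, Cyp2c70 and Cyp2c67. Mean levels were called in 10, 7, 5 and 0, beside 14.2%, 4.19%, 5.54% and 0.0629% of all genes. For mean levels, the block takes differences between replicate numbers out of the spread that paradigms are judged against. The p-values of those mean level calls may therefore be too small. Of the 36 calls the block kept 35 and added 23, while the GC covariate kept 32 and added 20. A mean level threshold of 0.25 CPM gave 42 members and one of 1 CPM gave 38.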
